A study of Mus musculus with 96 samples.

Results

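P2ry6, P2rx7, Adora3 and Ada are genes of purinergic and adenosine signalling, and their responses were followed in RAW 264.7 cells, a mouse macrophage-like cell line, given LPS, interferon gamma (IFNG), 2-methyl-thio-ATP (2MA) or LPS with either of the others. The members were all probes that the array's annotation assigns to 1 of these 4 symbols, with each probe kept apart. There were 7 such probes among 16281: 1 for P2ry6 (probe 5827), 2 for P2rx7 (6579 and 16975), 3 for Adora3 (541, 7232 and 12257) and 1 for Ada (14111). All 7 passed the filter for testing. Probes other than 7232 had a value on all 96 arrays, and 7232 had one on 95.

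Each array was a 2-colour hybridisation of treated against untreated RNA. LPS, the bacterial ligand of Toll-like receptor signalling, was used at 100 ng (the labels state no volume) together with 100 pM LPS binding protein. IFNG was used at 5 nM, and 2MA, an ATP analogue that activates P2 receptors, at 500 uM, although 1 description gives the same number in nM. LPS was sampled at 30 min and at 1, 2 and 4 h, and IFNG, 2MA, LPS with IFNG and LPS with 2MA at 1, 2 and 4 h, which made 16 groups. Each group held 3 sets, hybridised in both dye orientations, and the mean of both orientations was 1 set value, so n = 3 sets in every mean below. The labels name 1 cell line and do not say whether the sets were separate cultures or whether treatments shared untreated RNA, so p-values measure the spread between these sets, which may be technical.

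Cells release ATP and UTP when stressed or damaged, and these nucleotides act on P2 receptors at the surface. P2X receptors are ATP-gated cation channels, and P2Y receptors couple to G proteins. Ectonucleotidases degrade nucleotides outside the cell to adenosine, which acts on its own G protein-coupled receptors. Adenosine deaminase converts adenosine to inosine, and nucleoside transporters carry both across membranes. In macrophages, P2X7 is known for triggering inflammasome activation and release of interleukin-1 beta, and adenosine for dampening inflammatory responses.

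All values are log2 ratios of treated to untreated RNA, on which 1 is a 2-fold rise. A ratio gives a response and no level, so the genes cannot be ranked by abundance, and cell type markers could be read only as responses. Between 13508 and 15004 probes had a value on an array. Precision is set by the number of sets, 3 in each group, and by the spread between them. Standard errors had a median of 0.12 for responses and 0.17 for differences between treatments. A response was called at a Benjamini-Hochberg adjusted p under 0.05 from limma, adjusted over all 14545 probes tested. Of the macrophage markers measured, Fcgr1, the high-affinity Fc receptor and an IFNG target, rose by 1.51 after IFNG for 2 h. Adgre1 rose by 0.94 and Csf1r fell by 0.94 after LPS for 4 h. Of 5 macrophage marker probes tested, 3 were called higher and 1 lower in that LPS group, where 12.1% of all probes rose and 14.6% fell. Among T and B cell markers Cd3e alone was called, in 1 group (0.40 after LPS with IFNG for 2 h, limma adjusted p = 0.0297), where 19.3% of all probes were called. The 3 probes of Il1b rose by between 4.34 and 5.16 after LPS for 4 h. The dye orientation shifted several member probes: its gap, treated RNA in Cy5 minus treated RNA in Cy3, averaged 0.55 for P2ry6, -0.40 for P2rx7 probe 6579, 0.66 for Adora3 probe 541 and -0.41 for Adora3 probe 12257. The mean of both orientations balances this gap within a set.

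The RefSeq promoter table (GRCm38.p6) held windows for 3 of the 4 genes. Adora3 and Ada are shown because they had both a called response and a window in the table. The 250 bases before each start are given in the gene's own direction, 5′ to 3′, with motif matches in capitals. The letters searched on both strands were GGG and CC with any 5 bases between them for NF-kB, TTCNNNGAA for the interferon gamma-activated site (GAS), GAAA followed, after any 2 bases, by GAAA for the interferon-stimulated response element, TGANTCA for AP-1, TGACGTCA for the cAMP response element and GCGNGGGCG for Egr.
Adora3, chr3:105904171-105904420, plus strand: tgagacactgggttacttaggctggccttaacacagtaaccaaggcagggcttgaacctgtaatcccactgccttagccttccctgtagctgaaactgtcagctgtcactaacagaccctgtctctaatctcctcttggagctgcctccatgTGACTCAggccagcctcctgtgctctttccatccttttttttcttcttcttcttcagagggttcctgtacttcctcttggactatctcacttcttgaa
Ada, chr2:163750240-163750489, minus strand: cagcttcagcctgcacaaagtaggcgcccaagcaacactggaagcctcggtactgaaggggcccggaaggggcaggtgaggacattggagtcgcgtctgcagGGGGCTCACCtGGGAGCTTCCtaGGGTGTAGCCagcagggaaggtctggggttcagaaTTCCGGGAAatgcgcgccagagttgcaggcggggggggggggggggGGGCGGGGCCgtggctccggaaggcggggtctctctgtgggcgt
In Adora3 the capitals mark 1 AP-1 match, TGACTCA, from 98 to 92 bases before the start. In Ada they mark 1 GAS match, TTCCGGGAA, from 90 to 82 bases before the start, and 4 NF-kB matches that begin 148, 137, 125 and 44 bases before it. Of all 32851 promoter windows of the same length, 6.75% held the AP-1 letters, 7.02% the GAS letters and 45.8% the NF-kB letters. The other letters searched were not in these 2 windows.

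Adora3, which encodes the A3 adenosine receptor, a Gi-coupled receptor, gave the largest responses of the 4 genes. On probes 7232 and 12257 it rose after IFNG alone within 1 h, stood near 0 at 1 and 2 h when LPS was given with IFNG, and rose after the combination at 4 h. Probe 541 showed none of this.

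After IFNG for 1 h the sets of probe 7232 stood at 1.13, 1.57 and 1.50 (mean 1.40 ± 0.24 SD, n = 3), a 2.64-fold rise with a limma adjusted p of 1.06e-07. Those of probe 12257 stood at 1.31, 1.41 and 1.35 (mean 1.35 ± 0.05 SD, n = 3; limma adjusted p = 6.14e-10). All 6 arrays of either probe lay above 0. Among all probes tested, 1.07% were called in this group, and the 2 Adora3 probes ranked 38 and 41 of 14545 from the highest.

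At 2 h of IFNG probe 7232 gave 1.55, 1.20 and 2.01 (mean 1.59 ± 0.41 SD, n = 3), a 3.00-fold rise, and probe 12257 gave 1.46, 1.30 and 1.76 (mean 1.51 ± 0.23 SD, n = 3). The limma adjusted p-values were 1.59e-09 and 1.28e-11, with 3.31% of all probes called. At 4 h the response was smaller, 0.70 ± 0.39 on probe 7232 and 0.45 ± 0.27 on probe 12257 (SD, n = 3; limma adjusted p = 0.00213 and 0.0141), where 11.7% of all probes were called. The call at 4 h was lost without set 1 (0.64 and 0.49; adjusted p = 0.0774 and 0.116) and without set 3 (0.54 and 0.30; adjusted p = 0.108 and 0.272). The IFNG response differed over its 3 times on both probes by limma's F test (adjusted p = 0.0354 and 0.000173; 3.54% of all probes called). The F test on probe 7232 lost its call without any 1 set (adjusted p from 0.183 to 0.252). That on probe 12257 lost its call without set 1 (adjusted p = 0.0687). At 4 h of IFNG, probe 12257 stood at 0.59, 0.72 and 0.90 on the arrays with treated RNA in Cy3. On those with treated RNA in Cy5 it stood at 0.15, -0.26 and 0.61.

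LPS alone moved Adora3 in opposite directions at 2 and 4 h. At 2 h probe 12257 stood at -0.65, -0.45 and -0.66 (mean -0.59 ± 0.12 SD, n = 3; limma adjusted p = 0.000893), below 0 on all 6 arrays. Without set 1 its adjusted p was 0.0585. Probe 7232 stood at -0.39 ± 0.10 (SD, n = 3) and was not called (limma adjusted p = 0.118). With set number as a block it was (adjusted p = 0.00353), but the block takes spread between sets out of the error of a response. At 4 h both probes rose, by 0.50 ± 0.25 and 0.45 ± 0.15 (SD, n = 3; limma adjusted p = 0.0187 and 0.00654). The rise of probe 12257 at 4 h lay on 1 dye orientation, with 0.85, 0.99 and 0.87 on the arrays with treated RNA in Cy3 and 0.28, 0.02 and -0.31 on those with treated RNA in Cy5. Probe 7232 lay above 0 on all 6 arrays at 4 h, but its call was lost without set 1 (0.38, adjusted p = 0.282) or set 3 (0.49, adjusted p = 0.0827). Without set 1 the rise of probe 12257 was not called either (0.39, adjusted p = 0.155). Of all probes, 14.5% were called at 2 h of LPS and 26.7% at 4 h. At 30 min and 1 h the 2 probes lay between -0.24 and 0.10, with no call.

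With LPS and IFNG together, the IFNG rise was not seen at 1 and 2 h. At 1 h the sets of probe 7232 stood at 0.25, -0.04 and 0.38, and those of probe 12257 at 0.16, -0.15 and 0.44. The set value of -0.04 rests on 1 orientation, since the other had no measurement. At 2 h they stood at 0.07, -0.28 and 0.27 on probe 7232 and at -0.02, -0.05 and 0.07 on probe 12257. No set of the combination reached the lowest set of IFNG alone at these times, and neither probe was called at 1 or 2 h.

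Against IFNG alone, the combination was lower by 1.20 on the log2 scale at 1 h on either probe; the difference was -1.20 ± 0.23 on probe 7232 and -1.20 ± 0.18 on probe 12257 (standard error; limma adjusted p = 0.000763 and 1.53e-05; 2.57% of all probes called). On probe 7232 it was -0.94 on the arrays with treated RNA in Cy5 (adjusted p = 0.0715) and -1.36 on the others. At 2 h the difference was -1.56 ± 0.23 on probe 7232 and -1.51 ± 0.18 on probe 12257 (standard error; limma adjusted p = 5.06e-06 and 9.78e-08; 7.47% called). Over both orientations and without any 1 set, the 2 h difference kept its sign and its call on both probes.

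At 4 h the combination gave the highest Adora3 values outside IFNG alone at 1 and 2 h. Probe 7232 stood at 1.65, 0.82 and 1.67 (mean 1.38 ± 0.49 SD, n = 3), a 2.61-fold rise, and probe 12257 at 1.37, 0.62 and 1.53 (mean 1.17 ± 0.49 SD, n = 3). The limma adjusted p-values were 5.14e-09 and 9.51e-10, with 31.6% of all probes called. Set 2 was the lowest on both probes.

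The combination at 4 h exceeded LPS alone by 0.88 ± 0.23 on probe 7232 and 0.72 ± 0.18 on probe 12257 (standard error; limma adjusted p = 0.0173 and 0.0125; 3.97% of all probes called), and the sets did not overlap. This call was lost without set 1 (0.87 and 0.68; adjusted p = 0.274 and 0.366), without set 3 (0.75 and 0.46; adjusted p = 0.258 and 0.440) and on the arrays of either orientation alone. Against IFNG alone it was higher by 0.68 ± 0.23 and 0.72 ± 0.18 (standard error; limma adjusted p = 0.0526 and 0.00603; 10.2% called), and the sets overlapped. With set number as a block the difference on probe 7232 was called (adjusted p = 0.000474), and without set 1 that on probe 12257 was not (0.58, adjusted p = 0.313).

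**Figure D1:**
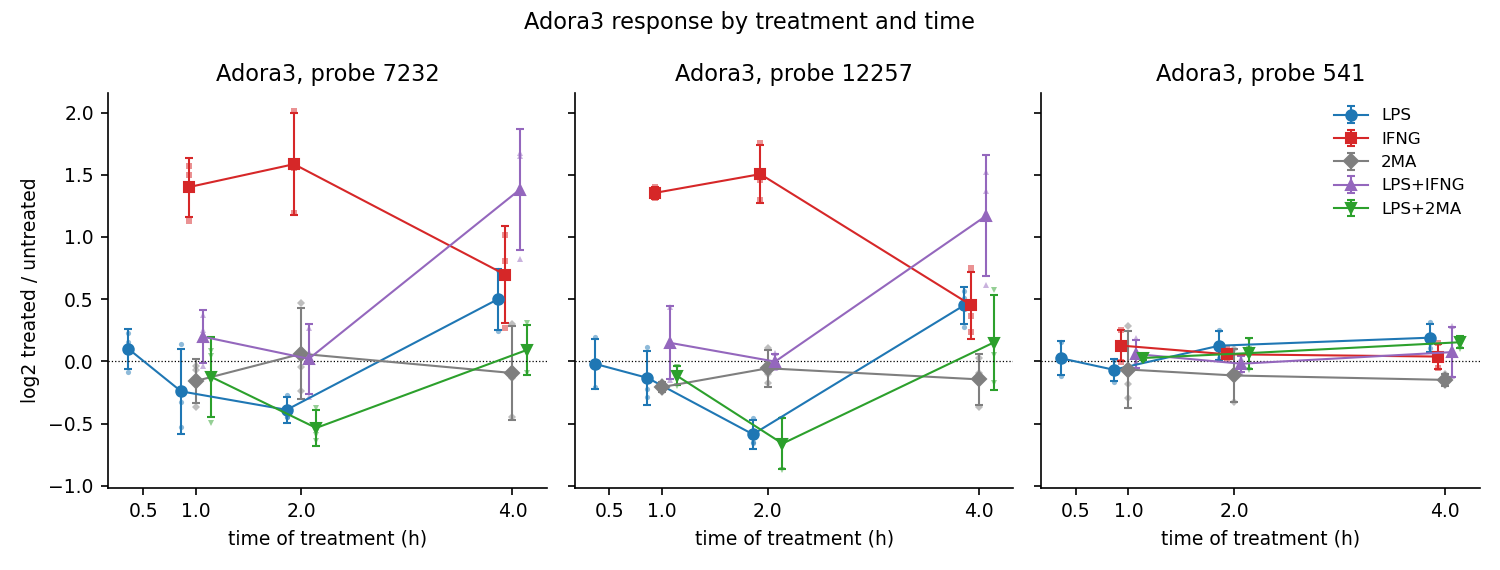
Log2 ratio of treated to untreated RNA (vertical axis) by time of treatment in hours (horizontal axis, points shifted sideways by treatment) for the 3 Adora3 probes. Large symbols and bars are the mean and SD of 3 sets and small symbols are the sets. Probes 7232 and 12257 stand at 1.35 to 1.59 after IFNG for 1 and 2 h and near 0 with LPS added, while probe 541 lies between -0.15 and 0.19 throughout.

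The design also allows the combination to be set against the sum of the single responses. At 1 h the sum was 1.16 on probe 7232 and 1.22 on probe 12257, and the combination fell short of it by 0.96 and 1.07: the departures were -0.96 ± 0.28 and -1.07 ± 0.22 (standard error; limma adjusted p = 0.663 and 0.0307). Only 0.103% of all probes were called in this comparison. The call of probe 12257 was lost without any 1 set (adjusted p from 0.195 to 1.0). With set number as a block probe 7232 was called too (adjusted p = 0.0032), but the block takes spread between sets out of the error of a departure. At 2 h the departures were -1.18 ± 0.28 and -0.92 ± 0.22 (standard error; limma adjusted p = 0.0518 and 0.0539; 0.337% called). At 4 h they were 0.18, with a 95% interval from -0.39 to 0.76, and 0.27, from -0.18 to 0.72, and neither was called (2.56% of all probes were).

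**Figure D2:**
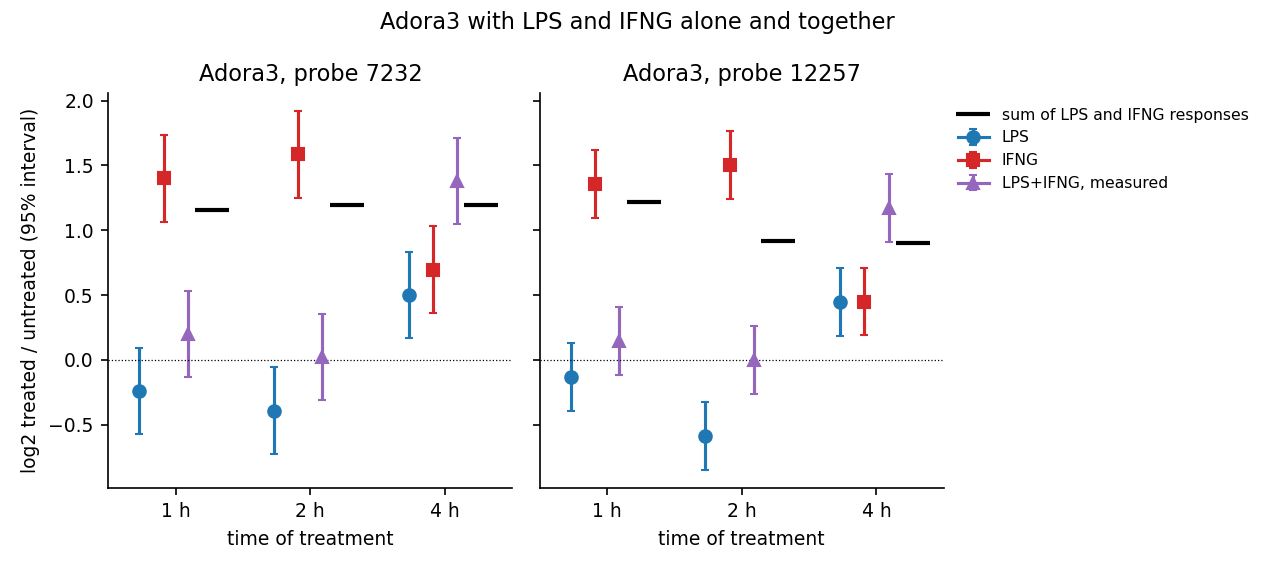
Log2 ratio of treated to untreated RNA (vertical axis, mean with the 95% interval of the fit) at 1, 2 and 4 h for 2 Adora3 probes after LPS, IFNG and both. The black bar is the sum of the 2 single responses. At 1 and 2 h the combination lies below the bar and below IFNG alone. At 4 h its means are 1.38 and 1.17, above the means of either ligand alone.

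The difference of the combination from IFNG alone was negative at 1 and 2 h and positive at 4 h, and its change over time was tested after the values had been seen. From 1 to 4 h it moved by 1.89 ± 0.33 on probe 7232 and 1.93 ± 0.26 on probe 12257 (standard error; limma adjusted p = 0.000268 and 5.18e-06; 2.89% of all probes called). From 2 to 4 h it moved by 2.25 ± 0.33 and 2.23 ± 0.26 (limma adjusted p = 4.00e-05 and 4.64e-07; 1.11% called). From 1 to 2 h it moved by -0.36 and -0.30, with no call (0.44% of all probes were). No member's change over time was called for LPS with IFNG minus LPS, where 0.131%, 1.27% and 0.536% of all probes were called from 1 to 2 h, 1 to 4 h and 2 to 4 h. None was for LPS with 2MA minus 2MA (0.406%, 6.05% and 1.88%) or LPS with 2MA minus LPS (0%, 0.0206% and 0%).

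The other differences between treatments placed IFNG alone apart at the early times. Against LPS alone, IFNG was higher at 1 h by 1.64 on probe 7232 and 1.49 on probe 12257 (limma adjusted p = 3.94e-06 and 2.33e-07; 2.58% of all probes called), and at 2 h by 1.98 and 2.09 (limma adjusted p = 3.72e-08 and 4.52e-11). Against 2MA it was higher by 1.56 on both probes at 1 h (1.01% called) and by 1.52 and 1.56 at 2 h (1.95% called). LPS with 2MA minus IFNG was -1.52 and -1.47 at 1 h (3.22% called) and -2.12 and -2.17 at 2 h (7.11% called). In all of these the sets did not overlap, and every one was called on both probes.

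At 4 h LPS with IFNG exceeded LPS with 2MA by 1.29 on probe 7232 and 1.02 on probe 12257 (limma adjusted p = 0.000209 and 0.000194; 4.3% of all probes called), and it exceeded 2MA by 1.48 and 1.32 (18.7% called). Without set 3 the first difference on probe 12257 was not called (0.68, adjusted p = 0.0739). LPS with IFNG minus LPS with 2MA was called at 2 h on probe 12257 (0.66, limma adjusted p = 0.0423; 2.22% called) and, with set number as a block, on probe 7232 too (0.56, adjusted p = 0.0138). The call on probe 12257 was lost without any 1 set (adjusted p from 0.0859 to 0.604). LPS with IFNG minus LPS at 2 h was 0.58 on probe 12257 (limma adjusted p = 0.0862; 2.48% called), and it was called with the block (adjusted p = 0.0228). Neither probe differed by a called amount between LPS with IFNG and 2MA at 1 or 2 h (3.18% and 8.35% called) or between LPS with IFNG and LPS with 2MA at 1 h (1.29% called). Nor did either probe between LPS with IFNG and LPS at 1 h (1.02% called).

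IFNG minus 2MA at 4 h was 0.79 on probe 7232 (limma adjusted p = 0.0396) and 0.60 on probe 12257 (limma adjusted p = 0.0552), with 4.13% of all probes called. On probe 7232 the sets overlapped and the call was lost without any 1 set (adjusted p from 0.0817 to 0.470), and on probe 12257 the block gave an adjusted p of 0.0138. LPS with 2MA minus IFNG at 4 h was called on probe 7232 with the block alone (-0.60, adjusted p = 0.00152; 13% of all probes called without it).

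The Adora3 response differed over time after LPS (limma F test, adjusted p = 0.0185 on probe 7232 and 0.000438 on probe 12257) and after LPS with IFNG (2.55e-05 and 5.29e-06), and after LPS with 2MA on probe 12257 (0.00315). Without set 1 those after LPS (0.614 and 0.120) and after LPS with 2MA (0.445) were not called.

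2MA did not give a called Adora3 response at any time, with means between -0.21 and 0.06 on probes 7232 and 12257. Of all probes, 1.65%, 1.35% and 1.92% were called at 1, 2 and 4 h of 2MA. With LPS and 2MA together at 2 h, probe 7232 stood at -0.59, -0.64 and -0.37 and probe 12257 at -0.87, -0.65 and -0.47. Both were called lower (means -0.54 and -0.66; limma adjusted p = 0.0182 and 0.000161; 16.3% of all probes called), and no array of either lay above 0. Probe 7232 lost the call without set 1 (-0.51, adjusted p = 0.144) or set 2 (-0.48, adjusted p = 0.0801). The difference from LPS alone at 2 h was -0.15 on probe 7232, with a 95% interval from -0.62 to 0.32, and -0.07 on probe 12257, from -0.44 to 0.29. At 4 h LPS with 2MA left Adora3 at 0.09 and 0.15, uncalled, and its difference from LPS alone was -0.41 (95% interval from -0.88 to 0.06) and -0.30 (from -0.67 to 0.07). LPS with 2MA minus 2MA at 2 h was -0.60 ± 0.23 on probe 7232 and -0.61 ± 0.18 on probe 12257 (standard error; limma adjusted p = 0.177 and 0.0450; 4.7% of all probes called); the block called probe 7232 too (0.00382), and leaving out any 1 set ended the call on probe 12257 (adjusted p from 0.108 to 0.465). 2MA minus LPS at 4 h was -0.59 on both probes (limma adjusted p = 0.0892 on probe 7232 and 0.0222 on probe 12257; 13.6% called), called on probe 7232 with the block (0.00181) and lost on probe 12257 without set 1 (0.171) or set 2 (0.211). LPS with 2MA minus 2MA was not called at 1 h (1.4% of all probes were) or 4 h (16.3%), nor 2MA minus LPS at 1 h (1.53%). At 2 h 2MA minus LPS was not called (4.68% of all probes were), and with the block it was, at 0.45 and 0.53 (adjusted p = 0.0346 and 0.0278). LPS with 2MA minus LPS was called on no member probe at any time, where 0.117%, 0.0413% and 0.316% of all probes were called at 1, 2 and 4 h, and no departure from the sum of LPS and 2MA was called, where 0.0206%, 0.0275% and 0.0825% were.

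Probe 541, annotated to the same transcript record as probe 7232, ran from -0.15 to 0.19 over the 16 groups, and none of its responses was called. With set number as a block, 2 of its differences at 4 h were called, 2MA minus LPS (-0.34, adjusted p = 0.0209) and LPS with 2MA minus 2MA (0.30, adjusted p = 0.0379). Its correlation with probe 7232 over the 16 group means was 0.34, and that of probes 7232 and 12257 was 0.99. The groups share arrays of 1 platform, and these values are descriptions. The widest gap between probes 541 and 7232 was 1.53, after IFNG for 2 h. Averaged over all 3 probes, the Adora3 response to IFNG at 2 h was 1.05, a value that the flat probe lowers. Adora3 lies within the span of Tmigd3, a gene on the same strand in the RefSeq annotation, and the probes' own sequences were not used here, so which transcripts each probe detects was not tested.

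In order of level, both responding probes placed IFNG at 2 h and at 1 h highest, then LPS with IFNG at 4 h, and LPS and LPS with 2MA at 2 h lowest. On probe 7232 the sets of every pair of neighbours in that order overlapped. On probe 12257 they overlapped in 14 of 15 pairs, and the exception separated 2MA at 1 h from LPS at 2 h. Among 2907 named genes with a group mean of at least 0.5 in size, those most like probe 12257 over the 16 group means were Slc12a7 (r = 0.90), Pik3cd (0.90), 1600014C10Rik (0.88), Ifnar2 (0.87) and Mknk1 (0.86). Slc12a7, a potassium-chloride cotransporter, rose by 0.86 after IFNG for 2 h. For probe 7232 Trim11 (0.88) took the place of Ifnar2.

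P2ry6, which encodes the UDP receptor P2Y6, was called higher after LPS and after both combinations. After IFNG or 2MA alone no P2ry6 response was called. After LPS for 4 h its sets stood at 1.37, 0.44 and 0.98 (mean 0.93 ± 0.47 SD, n = 3), a 1.91-fold rise (limma adjusted p = 7.91e-06), and all 6 arrays lay above 0. The rise was 1.26 on the arrays with treated RNA in Cy5 and 0.60 on those with treated RNA in Cy3, and it was called on either. At 2 h its sets stood at 0.86, 0.81 and -0.17 (mean 0.50 ± 0.58 SD, n = 3; limma adjusted p = 0.0233), and the call was lost without set 1 (0.32, adjusted p = 0.356) or set 2 (0.35, adjusted p = 0.216). At 30 min and 1 h the means were 0.03 and 0.05.

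LPS with IFNG gave a P2ry6 response of -0.04 at 1 h, 0.49 ± 0.19 at 2 h and 1.03 ± 0.54 at 4 h (SD, n = 3). The 4 h sets were 1.62, 0.55 and 0.94 (limma adjusted p = 8.64e-07), and set 2 was again the lowest. At 2 h 19.3% of all probes were called, and the P2ry6 call (limma adjusted p = 0.0219) was lost without set 1 (0.38, adjusted p = 0.236) or set 3 (0.56, adjusted p = 0.0662). LPS with 2MA gave -0.25, 0.29 and 0.63 at 1, 2 and 4 h. Only the 4 h value was called (sets 0.89, 0.21 and 0.80; limma adjusted p = 0.00126; 31% of all probes called), and without set 3 its adjusted p was 0.0511.

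IFNG alone left P2ry6 at 0.02 at 1 h, -0.37 ± 0.10 at 2 h and -0.09 ± 0.16 at 4 h (SD, n = 3), with no call. It lay below LPS alone by 0.88 ± 0.22 at 2 h and 1.02 ± 0.22 at 4 h; the differences, IFNG minus LPS, were -0.88 and -1.02 (limma adjusted p = 0.00794 and 0.00118; 6.71% and 9.52% of all probes called). The sets did not overlap at either time. The combination exceeded IFNG alone by 0.86 ± 0.22 at 2 h and 1.12 ± 0.22 at 4 h (standard error; limma adjusted p = 0.00866 and 0.000358). Without set 1 none of these 4 differences was called (adjusted p from 0.103 to 0.239), and without set 2 the 2 h difference of IFNG from LPS was not (-0.69, adjusted p = 0.126).

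At 4 h P2ry6 after LPS with IFNG exceeded 2MA by 0.70 ± 0.22, and LPS with 2MA exceeded IFNG by 0.72 ± 0.22 (standard error; limma adjusted p = 0.0203 and 0.0220). Without set 1 (0.333 and 0.267) or set 3 (0.139 and 0.136) neither was called. With the block LPS with 2MA exceeded IFNG at 2 h too (0.66, adjusted p = 0.0112).

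No P2ry6 difference between LPS alone and LPS with a second ligand was called. At 4 h LPS with IFNG minus LPS was 0.10, with a 95% interval from -0.34 to 0.55, and LPS with 2MA minus LPS was -0.30, from -0.74 to 0.15. No P2ry6 departure from the sum was called; the widest was -0.63 ± 0.27 (standard error) for LPS with 2MA at 4 h (limma adjusted p = 1.0, unadjusted p = 0.0252). 2MA alone gave -0.40 ± 0.24 at 1 h, 0.19 ± 0.14 at 2 h and 0.34 ± 0.11 at 4 h (SD, n = 3), without a call. The 95% interval at 4 h ran from 0.02 to 0.65, so a rise after 2MA was neither called nor shown to be absent. The F test of 2MA over time had an unadjusted p of 0.00489 and a limma adjusted p of 0.336, where 0.206% of all probes were called. With set number as a block, 2MA differed from LPS at 4 h by -0.60 ± 0.18 (standard error; limma adjusted p = 0.0158).

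The P2ry6 response differed over time after LPS, LPS with IFNG and LPS with 2MA (limma F test, adjusted p = 0.0052, 0.0014 and 0.0106; 15.5%, 15.7% and 15.1% of all probes called). Without set 1 none of the 3 was called (adjusted p from 0.145 to 0.490), and without set 3 those after LPS (0.0547) and after LPS with 2MA (0.298) were not. The gap between LPS with IFNG and IFNG alone grew by 1.18 ± 0.31 from 1 to 4 h (standard error; limma adjusted p = 0.0250), in the same test chosen after the values were seen. In the order of the 16 groups, LPS with IFNG, LPS and LPS with 2MA at 4 h stood first and 2MA at 1 h last, and the sets of every pair of neighbours overlapped. The genes most like P2ry6 over the 16 group means were Otud5 (r = 0.91), Rab8a (0.91), Elp5 (0.90), F10 (0.90) and Carhsp1 (0.90). F10, coagulation factor X, rose by 1.45 after LPS for 4 h.

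P2rx7, which encodes the ATP-gated channel P2X7, gave no called response on either probe with all 3 sets and no block. Probe 6579 ran from -0.51 to 0.05 over the 16 groups, with a standard error of 0.22 and a median SD of 0.43 between sets. Its lowest mean, after LPS with 2MA for 2 h, came from sets at -0.22, -1.30 and -0.02 (limma adjusted p = 0.124), and after 2MA for 1 h the sets stood at -1.03, -0.24 and -0.23 (limma adjusted p = 0.364). A single set lay far below the others in both cases, set 2 in the first and set 1 in the second. The 2MA value was called without set 2 (-0.63, adjusted p = 0.0423) and stood at -0.23 without set 1 (adjusted p = 1.0). Probe 16975 ran from -0.18 to 0.24 with a standard error of 0.13, and its highest mean was after LPS with IFNG for 1 h (sets 0.45, 0.20 and 0.06; limma adjusted p = 0.359).

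None of the 30 differences between treatments, 6 departures from the sum and 5 tests over time was called on either P2rx7 probe. With set number within time as a block, probe 6579 was called lower in 6 of 16 groups, among them LPS with 2MA at 2 h (-0.51, adjusted p = 0.000785) and 4 h (-0.46, adjusted p = 0.00123), LPS with IFNG at 4 h (-0.40, adjusted p = 0.00516) and 2MA at 1 h (-0.50, adjusted p = 0.00805). The block takes the spread that groups of a time share by set number out of the error of a response. These calls, and that on probe 16975 below, therefore leave out spread between sets and do not show that the sets agreed. The shares of all probes called under the block are not given here. The 6 of 16 can therefore not be read as a result about P2rx7. The difference of probe 6579 between LPS with 2MA and IFNG at 2 h, in which a shared set effect cancels, was called with the block as well (-0.49 ± 0.16 standard error, adjusted p = 0.0398). Probe 16975 was called in 1 group under the block, LPS with IFNG at 1 h (0.24, adjusted p = 0.0471). The 2 P2rx7 probes correlated at 0.16 over the 16 group means, and their widest gap, 0.53, was after LPS with IFNG for 1 h. At 4 h of LPS their 95% intervals ran from -0.75 to 0.15 and from -0.43 to 0.07, so a fall by less than those bounds was not resolved.

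Ada, which encodes adenosine deaminase, moved by less than 0.4 in every group. After LPS for 4 h its sets stood at -0.22, -0.19 and -0.36 (mean -0.26 ± 0.10 SD, n = 3; limma adjusted p = 0.0300). After LPS with 2MA for 4 h they stood at -0.22, -0.20 and -0.31 (mean -0.24 ± 0.06 SD, n = 3; limma adjusted p = 0.0361), and no array lay above 0. Both calls were lost without set 2 (adjusted p = 0.120 and 0.154) and without set 3 (adjusted p = 0.265 and 0.240). On the arrays with treated RNA in Cy3 alone the LPS value was -0.12 (adjusted p = 0.401).

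After IFNG for 4 h the Ada sets stood at 0.85, 0.21 and 0.03 (mean 0.36 ± 0.43 SD, n = 3; limma adjusted p = 0.00407). The value in set 1 rests on 1 array at 1.33, with the other orientation of that set at 0.36. Without set 1 the mean was 0.12 (adjusted p = 0.604). LPS with IFNG at 4 h gave 0.21, 0.13 and -0.02 (mean 0.11 ± 0.12 SD, n = 3), without a call.

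At 4 h Ada was higher after IFNG than after LPS by 0.62 ± 0.13, higher than after 2MA by 0.50 ± 0.13, and the difference of LPS with 2MA from IFNG was -0.60 ± 0.13 (standard error; limma adjusted p = 0.000648, 0.0127 and 0.000622). In the last 2 comparisons 4.13% and 13% of all probes were called. The sets did not overlap in any of the 3, but without set 1 the differences were 0.40, 0.30 and -0.38 and none was called (adjusted p = 0.0796, 0.338 and 0.0730), and without set 2 that from 2MA was not called either (0.55, adjusted p = 0.150). LPS with IFNG exceeded LPS at 4 h by 0.36 (limma adjusted p = 0.128), which was called with set number as a block (0.0299), as was LPS with IFNG minus LPS with 2MA (0.35, adjusted p = 0.0355). The sum of the single responses at 4 h, 0.11, equalled the combination to within 0.0015, with a 95% interval for the departure from -0.32 to 0.32. The IFNG value in this sum includes the array at 1.33. Without set 1 IFNG, LPS and the combination stood at 0.12, -0.28 and 0.05 at 4 h. At 30 min, 1 h and 2 h the means lay between -0.07 and 0.14, with no call. In order, IFNG at 4 h stood first and LPS at 4 h last, and the sets of 14 of 15 pairs of neighbours overlapped, the exception being 2MA and LPS with 2MA at 4 h. The genes most like Ada over the 16 group means were Tubb2a (r = 0.89), Klf13 (0.84), Gclm (0.84), Fam174a (0.84) and Twsg1 (0.80).

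**Figure D3:**
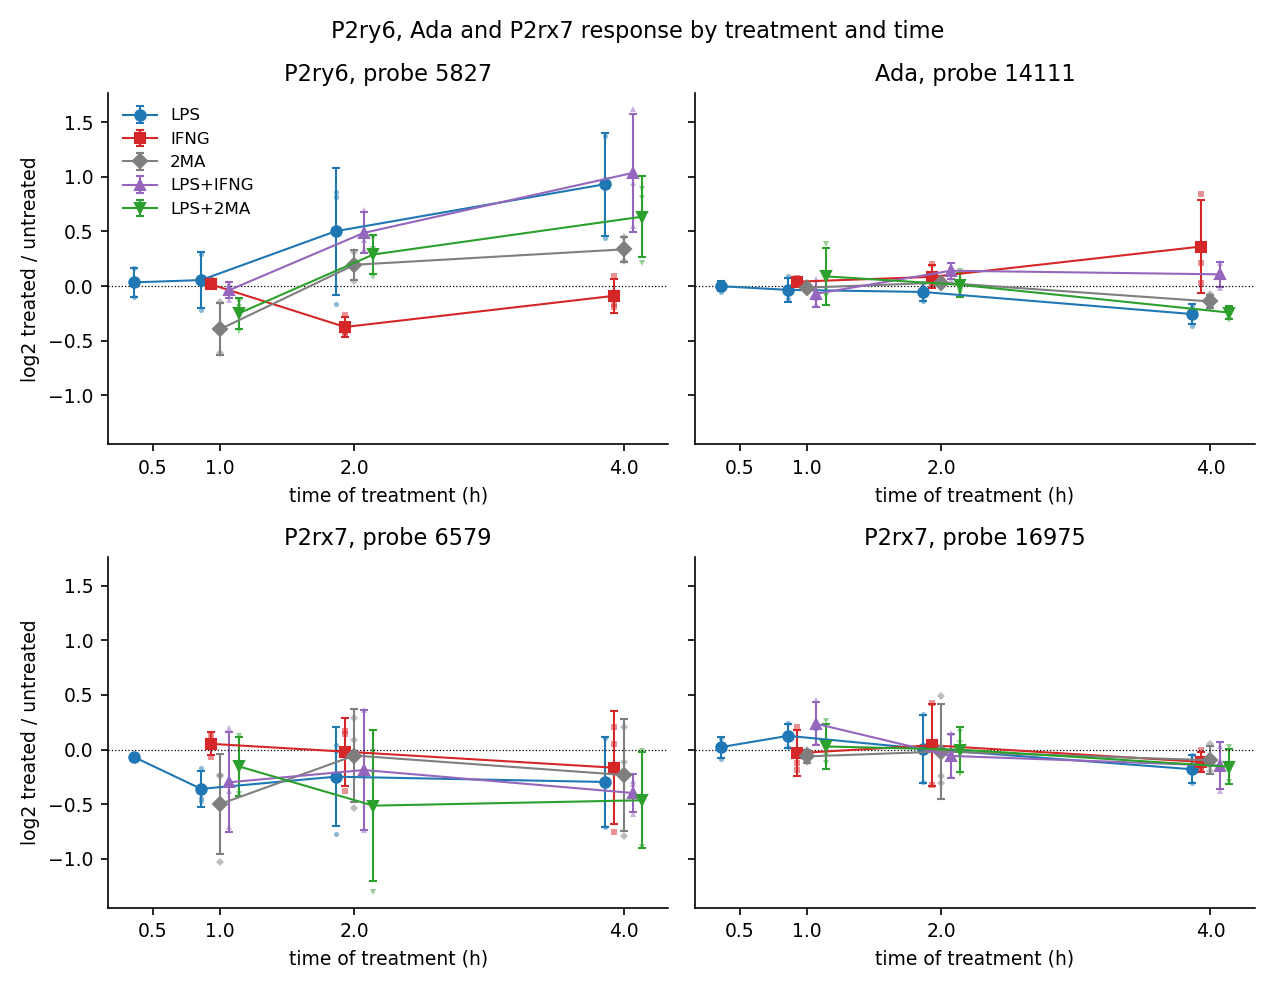
Log2 ratio of treated to untreated RNA (vertical axis) by time of treatment in hours (horizontal axis, points shifted sideways by treatment) for P2ry6, Ada and both P2rx7 probes. Large symbols and bars are the mean and SD of 3 sets and small symbols are the sets. P2ry6 reaches 0.93, 1.03 and 0.63 at 4 h in the 3 treatments that hold LPS, Ada stays between -0.26 and 0.36, and the sets of P2rx7 probe 6579 spread widely.

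Over the 7 probes and 16 groups, 21 responses were called: 5 of P2ry6, 6 and 7 of Adora3 probes 7232 and 12257, and 3 of Ada. Over all probes, the share called in 1 group ran from 1.07% to 31.6%. The 2 Adora3 probes belong to 1 gene and correlated at 0.99 over the 16 group means. Of the 30 differences between treatments, 6 were called for P2ry6, 12 and 15 for the 2 Adora3 probes and 3 for Ada; over all probes, the share called in 1 such difference ran from 0.0413% to 18.7%. No response was called at 30 min of LPS, where 1.07% of all probes were, and none at 1 h of LPS or of either combination, where 5.29%, 7.38% and 5.09% were.

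Among the other genes of the pathway, 48 probes of 36 genes on 6 lists were tested, the members included. At 4 h of LPS 11 rose and 7 fell, with a median of 0.09 beside 0.00 over all probes, where 12.1% of all probes rose and 14.6% fell. At 4 h of LPS with IFNG 13 of the 48 rose and 8 fell, where 14.7% of all probes rose and 16.9% fell. At 4 h of LPS with 2MA 7 of the 48 rose and 7 fell, where 14.3% of all probes rose and 16.7% fell, so the 8 and 7 that fell and the 7 that rose are near these shares. IFNG raised 5, 5 and 8 of the 48 at 1, 2 and 4 h, where 0.949%, 2.78% and 6.32% of all probes rose. At each time 2 of these were Adora3 probes, which are members, so the counts are of probes and not of separate genes. IFNG lowered 0, 1 and 3, where 0.124%, 0.536% and 5.4% fell, and the 3 at 4 h are near that share. None of the 48 was called after 2MA alone at any of the 3 times, where 1.35% to 1.92% of all probes were. A further list, of inflammasome partners of P2X7, was kept apart from the 48. Of its 12 tested probes of 7 genes, 0, 3 and 2 were called higher at 1, 2 and 4 h of 2MA. Of all probes, 0.914%, 1.12% and 1.4% rose in these groups.

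Among the other receptors, P2rx4, an ATP-gated channel, rose on both tested probes at 4 h: by 0.94 and 1.00 after LPS, 0.82 and 0.81 after LPS with IFNG, and 0.99 and 1.04 after LPS with 2MA. It was not called after IFNG or 2MA. P2ry2, the receptor for ATP and UTP, rose on all 3 tested probes at 2 h of LPS (0.91, 0.94 and 0.63), and 2 of the 3 had risen at 1 h. All 3 P2ry2 probes were also called higher at 4 h of LPS and at 2 h of LPS with 2MA. At 4 h of LPS with 2MA none of them was called, with means of 0.09, 0.13 and 0.26. The P2ry2 difference of LPS with 2MA from LPS alone is not given here. P2rx1, P2rx6, P2ry1, P2ry4, P2ry12 and P2ry14 gave no called response in any group. Adora3 was the only adenosine receptor of the list with a probe named to it.

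Of the ectonucleotidases, Entpd1, the CD39 enzyme that degrades extracellular ATP and ADP, rose after IFNG for 4 h (1.32) and after LPS with IFNG for 4 h (sets 1.73, 1.59 and 1.75; mean 1.69 ± 0.09 SD, n = 3; limma adjusted p = 1.35e-17). After LPS alone for 4 h Entpd1 stood at -0.19 (limma adjusted p = 0.157). Entpd6 fell at 4 h of LPS (-0.73), IFNG (-0.50), LPS with IFNG (-1.29) and LPS with 2MA (-0.94). Entpd5 and 1 of 2 Entpd4 probes fell at 4 h in the 3 treatments that hold LPS. The Entpd genes were listed by family name, and where the Entpd4, Entpd5 and Entpd6 enzymes act was not tested. These falls are therefore no measure of nucleotide breakdown outside the cell. Nt5e, the CD73 enzyme that makes adenosine from AMP, and Alpl gave no called response.

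Downstream of adenosine, Pnp, which cleaves inosine and guanosine, rose on both probes from 1 h of IFNG (0.72 and 0.68) and reached 2.14 and 2.31 after LPS and 2.74 and 2.78 after LPS with IFNG at 4 h. Ada, the step before it, moved by -0.26 and 0.11 in these last 2 groups. Slc28a2, a concentrative nucleoside transporter, rose to 3.07 ± 0.57 after LPS, 3.40 ± 0.19 after LPS with IFNG and 3.16 ± 0.16 after LPS with 2MA at 4 h (SD, n = 3). The equilibrative transporters Slc29a1 and Slc29a2 fell in the same 3 groups, by 0.61 and 0.65 on the log2 scale after LPS. Slc29a3, a further equilibrative transporter, did not follow them: it rose after LPS with 2MA for 4 h (sets 0.57, 0.93 and 0.68; mean 0.73; limma adjusted p = 2.71e-05) and was not called after LPS (0.27) or LPS with IFNG (-0.31) at 4 h. Panx1, a channel for ATP release, fell after LPS for 4 h (-0.63). Ampd3, an AMP deaminase, rose by 0.86 after LPS for 2 h and fell after IFNG for 4 h (-0.59).

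**Figure D4:**
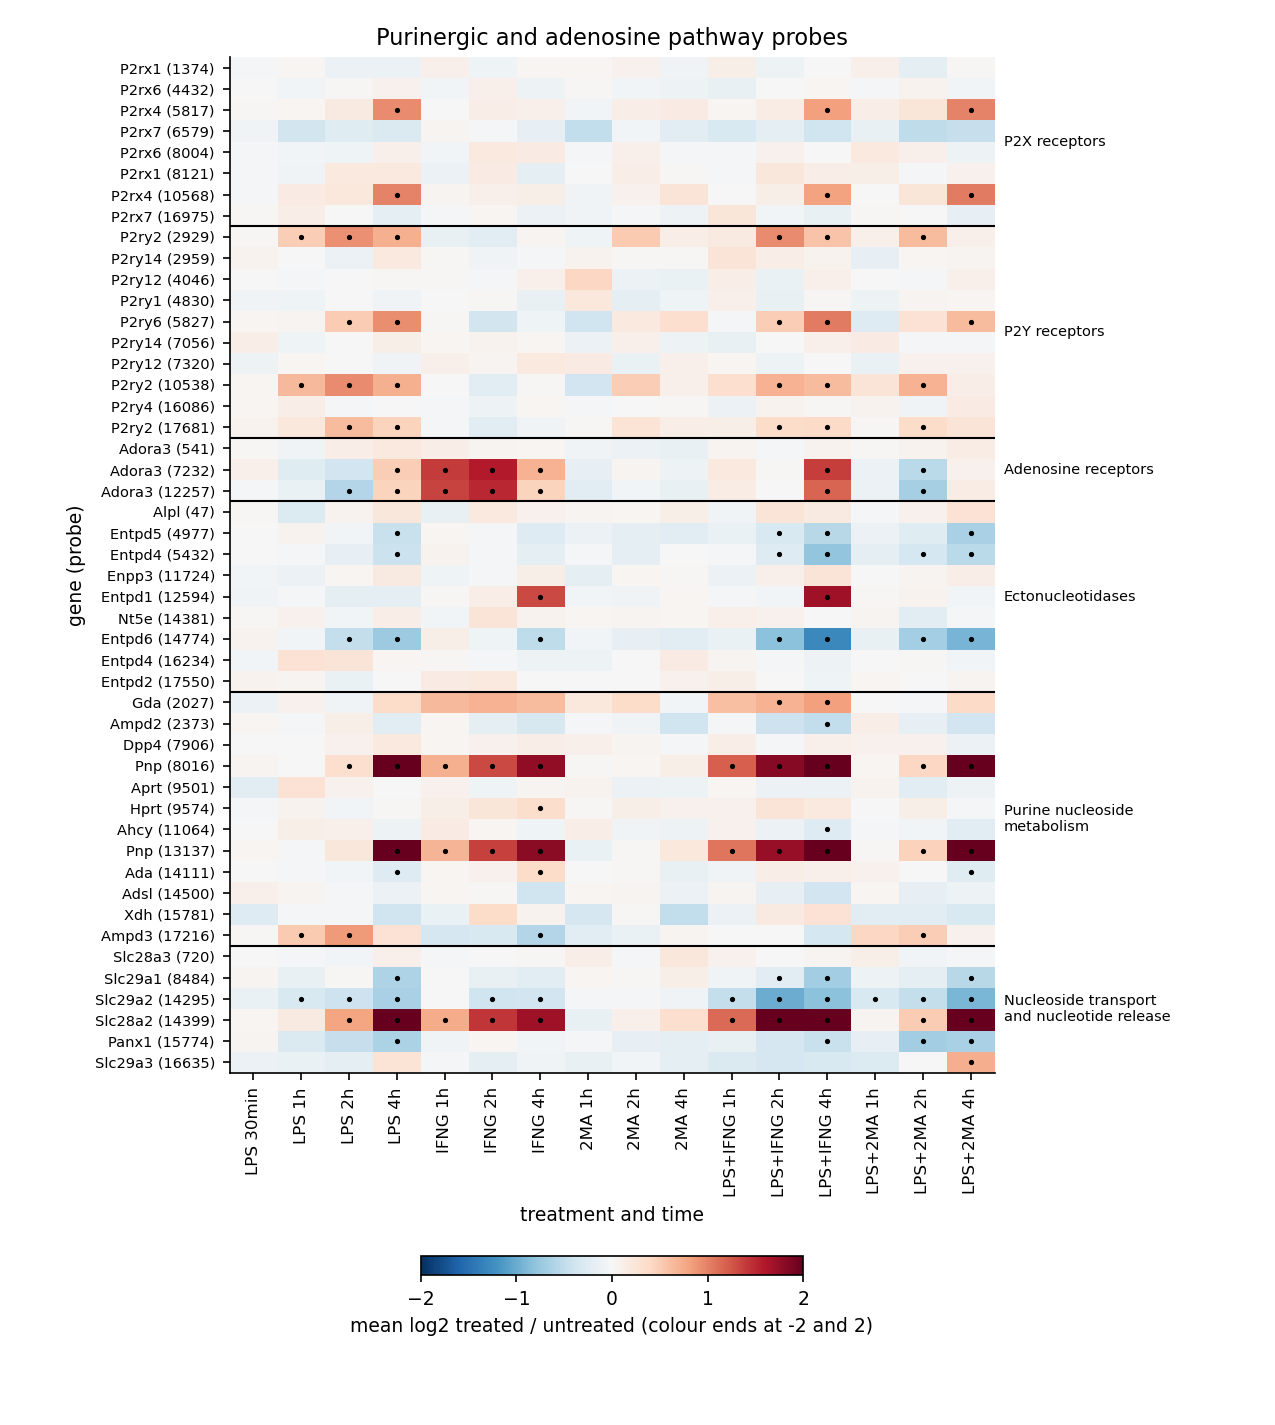
Mean log2 ratio of treated to untreated RNA (colour, which ends at -2 and 2) for the 48 tested pathway probes (rows, by list) in the 16 groups (columns). Black dots mark a limma adjusted p under 0.05. Pnp and Slc28a2 exceed 2 at 4 h of LPS, the Adora3 probes 7232 and 12257 are highest after IFNG at 1 and 2 h, and no dot lies in the 2MA columns.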

How the data were processed

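The deposited values are log2 ratios of Cy5 to Cy3, 1 column per array. The channel roles come from the labels, and base 2 was inferred from a ceiling: 14 values equal 6.643856, log2 of 100. Image analysis, background correction, normalisation and genome build are not given in the sources used here, and the median of every deposited array was 0. Exact zeros (1277 to 2773 per array) were read as missing. The sign of arrays with treated RNA in Cy3 was turned, and both orientations of a set were averaged, or the 1 measured was taken.

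Testing required values in at least 2 of 3 sets for each group, which kept 14545 of 16281 probes. Names came from the platform annotation of the array, with current RefSeq symbols; 13738 probes had 1 gene, 52 several and 2491 none. limma 3.58.1 in R 4.3.3 fitted 1 mean per group to 48 set values (32 residual degrees of freedom), with empirical Bayes moderation, two-sided tests and Benjamini-Hochberg adjustment over all tested probes within each comparison. The tests covered 16 responses, 30 differences between treatments, 6 departures from a sum and 5 F tests over time. A further 12 contrasts, the change over time of a difference, were chosen after the values were seen. The code was tested on simulated data. The alternatives were dye orientation, zeros, centring, filters, probe averaging, the groups in the fit, a set block and leaving out each set.

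The members and gene lists were chosen with earlier results of these data known. Pathway genes are named if called with the same sign in all sets and among the 3 largest means of their list. Entpd5, Slc29a1, Panx1, and the P2 receptors, Nt5e and Alpl without a call, are named besides, chosen after their values were seen. Likeness is Pearson's r over 16 group means, with the 5 highest given.

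Set numbers come from the labels. Deviations from the group means correlated by set number above 0.1 in every pair of sets for 24 of 30 pairs of same-time groups (lowest -0.0982, highest 0.731), so blocked values are printed where they changed a call in such a pair. A shared set effect cancels in a difference between treatments. In a response or a departure from a sum it does not, and there the block takes spread between sets out of the error. Deposited columns not used here number 0.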

Additional observations from a re-analysis of the deposited data

Results flagged for a closer look

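Of 112 sets of 6 arrays checked (7 probes in 16 groups), 2 held an array far from the others, and chance alone would flag about 1 in 20. After IFNG for 4 h, the Ada array of set 1 with treated RNA in Cy5 stood at 1.33, where the next highest was 0.36. After LPS with 2MA for 2 h, the Ada array of set 1 with treated RNA in Cy3 stood at 0.35, where the next was 0.01. The first carries the called rise of Ada after IFNG, and the second lies in a group without a call.

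The difference between LPS with IFNG and IFNG alone changed with time in 5 of 21 tests (3 pairs of times on 7 probes), and 3 other differences gave 0 calls in 63 tests by limma (4 at an unadjusted p under 0.05), all chosen after the values were seen. Over all probes, 0.44%, 2.89% and 1.11% were called for the former from 1 to 2 h, 1 to 4 h and 2 to 4 h. From 1 to 4 h it changed by 1.18 for P2ry6, by 1.89 for Adora3 probe 7232 and by 1.93 for Adora3 probe 12257. From 2 to 4 h it changed by 2.25 and 2.23 for these 2 Adora3 probes. In each Adora3 case the mean of the combination was below that of IFNG alone at the earlier time and above it at 4 h. The difference at 4 h was not called on probe 7232. On probe 12257 its call was lost without set 1, and the sets overlapped on both probes.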

How the results depend on the processing

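Of 230 alternatives to 18 leading results, 201 were counted as kept, and of 1885 to 145 other results 1739 were, with 3 turned in sign. Kept means the same side of the threshold, or, for a count of calls, a number near the main one. A turn in sign was counted only where the main or the alternative fit gave a call. Uncalled values that changed sign count as kept, such as P2rx7 probe 6579 after 2MA for 2 h (-0.05, and 0.19 without set 2). Keeping zeros, recentring and the 3 filters on missing values changed no call. Standard errors of a response ran from 0.085 (Adora3 probe 541) to 0.22 (P2rx7 probe 6579), and the smallest called was -0.24 (Ada).

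Leaving out each set gave ranges of 0.80 to 1.32 for P2ry6, LPS with IFNG minus IFNG at 4 h, 0.75 to 1.03 and 0.46 to 1.03 for LPS with IFNG minus LPS at 4 h on Adora3 probes 7232 and 12257, 0.12 to 0.53 for Ada after IFNG at 4 h and -0.29 to -0.20 after LPS. The called responses (21) ran from 12 to 18, differences (36) from 20 to 31, departures from the sum (1) stayed at 0 and tests over time (10) ran from 2 to 9.

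The Cy5 arrays alone gave 23 differences, 5 tests over time, -0.94 for LPS with IFNG minus IFNG at 1 h on probe 7232, and 0.76 on both probes for LPS with IFNG minus LPS at 4 h. The Cy3 arrays alone gave 1.01 and 0.68 for the latter, and 0.25 and -0.12 for Ada after IFNG and LPS at 4 h. With the compared groups alone, the values 0.88, 0.72, 0.36 and -0.26 were not called, and 0 departures were. Turned in sign where a fit gave a call was Adora3 probe 12257 after LPS for 4 h on the Cy5 arrays (-0.0039). Probe 541 turned likewise after LPS with 2MA, at 1 h on the Cy3 arrays (-0.42) and at 2 h with probes averaged (-0.38). Averaging mixes it with the other 2. The cause was not tested for the others. Probe averaging gave no counts.

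With set number as a replicate block, 29 responses, 52 differences, 4 departures and 10 tests over time were called. The shares of all probes called under the block are not given here, so these counts cannot be read as a result about the members. For responses and departures the block also takes spread between sets out of the error. At 2 h, where LPS and IFNG sets did not pair (lowest correlation -0.0265), the Adora3 departures were called under the block (-1.18 and -0.92; adjusted p = 5.94e-05 and 0.00929).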
